A study of Mus musculus with 7 samples.

Results

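The transcripts described are those of the variable segments of the mouse immunoglobulin loci, read from RNA-seq of mouse PBMCs, a blood fraction of lymphocytes and monocytes. Members were the genes whose symbol began with Ighv, Igkv or Iglv and whose read counts summed to at least 200 over the 7 libraries, so the counts themselves chose them. Of 348 such segment rows among 45777 genes, 140 were members, 65 of 183 at the heavy chain locus, 72 of 162 at the kappa light chain locus and all 3 at the lambda light chain locus. The other 208 rows were below the limit, and 80 of them held 0 counts in all libraries. Just inside the limit were Ighv1-58 with 214 summed counts, Ighv1-54 with 216 and Ighv2-3 with 218, and just outside it were Ighv9-1 and Igkv4-86 with 193 each and Igkv12-38 with 191. The members held between 91.9% and 94.2% of each library's segment counts, 112863 of 121238 counts in all. The deposited table annotated 136 of them as V segments and 4 as V segment pseudogenes (Ighv7-3, Ighv7-1, Ighv1-62 and Igkv14-126).

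The study compared mice at week 8 of serial blood collection with a control group, and each of its 7 groups gave 1 library. The control, labelled Non, was set beside 3 collection routes: facial vein (FV), retro-orbital plexus (RP) and tail vein (TV). Each route had a library from mice without ibuprofen and another from mice given it, a drug that inhibits prostaglandin synthesis. The sources used here give no strain, sex, age, ibuprofen dose or pooling of animals. No group had a replicate, so p-values reflect how far these single libraries scatter, and that scatter may be technical.

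A B cell builds its antigen receptor by joining 1 heavy chain V segment to a D and a J segment, and 1 kappa or lambda V segment to a J segment, so each mature B cell clone carries its own pair of V segments. The V segment encodes most of the part of the chain that contacts antigen, and it is transcribed as part of an mRNA that ends in the constant region. Reads that fall on a V segment therefore come from many B cells and plasma cells at once, and plasma cells hold far more of this mRNA per cell than resting B cells. In bulk PBMCs, fewer B cells and less RNA per cell cannot be told apart.

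Neighbouring segments are copies of each other, which limits how far reads can be assigned, so the V exons on which the results turn are shown. The annotation used was GENCODE M21 on GRCm38, the same assembly as mm10, and it held a V exon for all 140 members. The nearest other segment of the same locus was at least 98% identical for 11 members and at least 95% identical for 86, with a median of 95.6%. The first 2 sequences belong to the most abundant members at the kappa locus, Igkv1-117 and Igkv1-110, both on the plus strand. Their exons are 313 bases long and differed at 10, in capitals; the first 300 bases, which hold all 10, are at chr6:68121515-68121814 and chr6:68270955-68271254.
Igkv1-117: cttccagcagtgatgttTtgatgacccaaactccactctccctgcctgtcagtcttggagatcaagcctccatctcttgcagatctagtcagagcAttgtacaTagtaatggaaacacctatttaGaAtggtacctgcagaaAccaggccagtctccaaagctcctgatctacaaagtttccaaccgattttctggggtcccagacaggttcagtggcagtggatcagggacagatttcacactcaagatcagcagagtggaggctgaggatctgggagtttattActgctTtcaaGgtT
Igkv1-110: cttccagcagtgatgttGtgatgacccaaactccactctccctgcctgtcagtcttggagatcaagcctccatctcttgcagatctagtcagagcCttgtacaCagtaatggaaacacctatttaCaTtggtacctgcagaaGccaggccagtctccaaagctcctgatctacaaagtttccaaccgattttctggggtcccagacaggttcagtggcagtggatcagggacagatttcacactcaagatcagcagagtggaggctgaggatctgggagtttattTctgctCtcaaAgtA
The next 2 are the most alike pair of abundant kappa members, Igkv5-45 at chr6:69775750-69776047 and Igkv5-43 at chr6:69823355-69823652, both on the minus strand. They differed at 3 of 298 bases, again in capitals.
Igkv5-45: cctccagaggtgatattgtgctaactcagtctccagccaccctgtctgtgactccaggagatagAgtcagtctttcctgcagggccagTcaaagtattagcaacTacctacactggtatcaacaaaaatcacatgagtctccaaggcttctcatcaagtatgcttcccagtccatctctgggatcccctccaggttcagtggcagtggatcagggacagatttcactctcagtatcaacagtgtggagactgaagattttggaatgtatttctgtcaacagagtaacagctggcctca
Igkv5-43: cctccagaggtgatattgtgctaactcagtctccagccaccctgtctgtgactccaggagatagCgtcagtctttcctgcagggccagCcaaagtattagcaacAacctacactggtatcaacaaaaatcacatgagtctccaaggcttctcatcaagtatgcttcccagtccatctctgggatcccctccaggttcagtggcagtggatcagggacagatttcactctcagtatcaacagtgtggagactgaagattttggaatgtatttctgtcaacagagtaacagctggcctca
The last is Ighv1-14, of which the first 300 of 305 bases are at chr12:114646577-114646876 on the minus strand, shown because it was the member with 0 counts in 1 library and 4.53% of Ighv counts in another. Its nearest segment, Ighv1-83, is not a member and differed at 28 of 305 bases, in capitals here.
Ighv1-14: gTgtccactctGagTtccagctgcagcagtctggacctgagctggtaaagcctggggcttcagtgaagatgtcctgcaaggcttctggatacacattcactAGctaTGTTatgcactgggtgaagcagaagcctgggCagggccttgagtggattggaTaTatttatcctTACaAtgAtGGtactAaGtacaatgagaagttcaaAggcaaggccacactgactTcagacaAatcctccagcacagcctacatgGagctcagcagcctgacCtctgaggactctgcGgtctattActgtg
GENCODE gave Ighv1-14 the type IG_V_pseudogene, as it did Ighv1-62 and Igkv4-73, whereas the deposited table listed Ighv1-14 as a V segment.

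Use of a segment was measured as its share of the summed member counts of its locus in a library, which does not depend on how libraries are scaled. The locus totals behind these shares ran from 2214 counts in TV without ibuprofen to 7708 in RP without ibuprofen for Ighv, from 4594 to 14732 in the same libraries for Igkv, and from 75 to 353 in the same libraries for Iglv. Intervals are 95% Wilson intervals and cover counting error only. For 129 of the 140 members the interval of the highest library lay above that of the lowest. The highest and lowest of the 7 libraries were picked from these same shares, which favours separation. Over all genes, too, each of the 21 pairs of libraries differed by more than sampling noise (chi-square per degree of freedom at least 30.7, and 6.01 to 16.9 over members). The count therefore does not set the segments apart from other genes. The ratio of the highest to the lowest share had a median of 2.30. It was below 2 for 41 members and at least 4 for 23.

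At the heavy chain locus the highest mean share over the 7 libraries was 4.83% ± 1.87 (SD, n = 7 libraries of different groups) for Ighv9-3, followed by Ighv3-6 at 4.28% ± 0.852, Ighv2-2 at 4.13% ± 0.768, Ighv1-26 at 3.86% ± 0.945, Ighv5-17 at 3.29% ± 0.968 and Ighv1-82 at 2.83% ± 0.876. In shares of the deposited TPM, which are per length, Ighv3-6 stood at 4.50% and Ighv9-3 at 4.28%, and neighbours in this order differed by less than 1 SD. Between 15 and 19 members together made up 50% of the Ighv counts of a library.

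Ighv9-3 lies in the proximal part of the locus. Its share was 1.84% in Non, 5.26% in FV without and 5.41% in FV with ibuprofen, 2.89% in RP without and 5.42% in RP with ibuprofen, and 7.45% in TV without and 5.5% in TV with ibuprofen. Non was therefore the lowest library and TV without ibuprofen the highest, and the interval of each was apart from those of all other libraries.

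Ighv1-14 showed a different order. It took 4.53% of the Ighv counts in Non, 2.61% in RP without and 2.12% in RP with ibuprofen and 1.77% in FV with ibuprofen, but 0.34% in FV without ibuprofen and 0.23% in TV with ibuprofen. In TV without ibuprofen it had 0 of 2214 counts, which allows a share of up to 0.136%, at least 33.4-fold lower than in Non. Its counts thus fell into a higher set of 4 libraries and a lower set of FV without ibuprofen and both TV libraries.

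Ighv7-3, which the deposited table calls a pseudogene and GENCODE an IG_V_gene, took 5.17% in Non and led the locus there. It took 1.37% and 2.98% in FV, 2.54% and 2.78% in RP and 1.81% and 1.01% in TV, in each route without and then with ibuprofen. Ighv14-4 took 2.98% in Non, between 2.40% and 2.41% in the RP libraries, 1.21% in FV with ibuprofen, and between 0.77% and 0.90% in FV without ibuprofen and both TV libraries. Ighv2-9 was at 2.38% in Non, between 1.47% and 2.75% in RP and FV with ibuprofen, and between 0.56% and 1.01% in the same 3 libraries. The 3 libraries FV without ibuprofen and TV without and with ibuprofen were the 3 lowest for 11 of the 65 Ighv members. Of the 35 possible sets of 3 libraries, the next most frequent was lowest for 6 members. At Igkv the same set was lowest for 2 of 72 members, and the most frequent set there, Non with both FV libraries, for 7. The set was singled out after the values of Ighv1-14 were seen, and Ighv1-14 is among the 11, as are Ighv7-3, Ighv14-4 and Ighv2-9. These last 3 were named for a small p on the lower side of fits to these libraries, so their low shares there are part of that choice. Shares within a locus depend on each other, so the members are not independent and the counts only describe them.

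**Figure D1:**
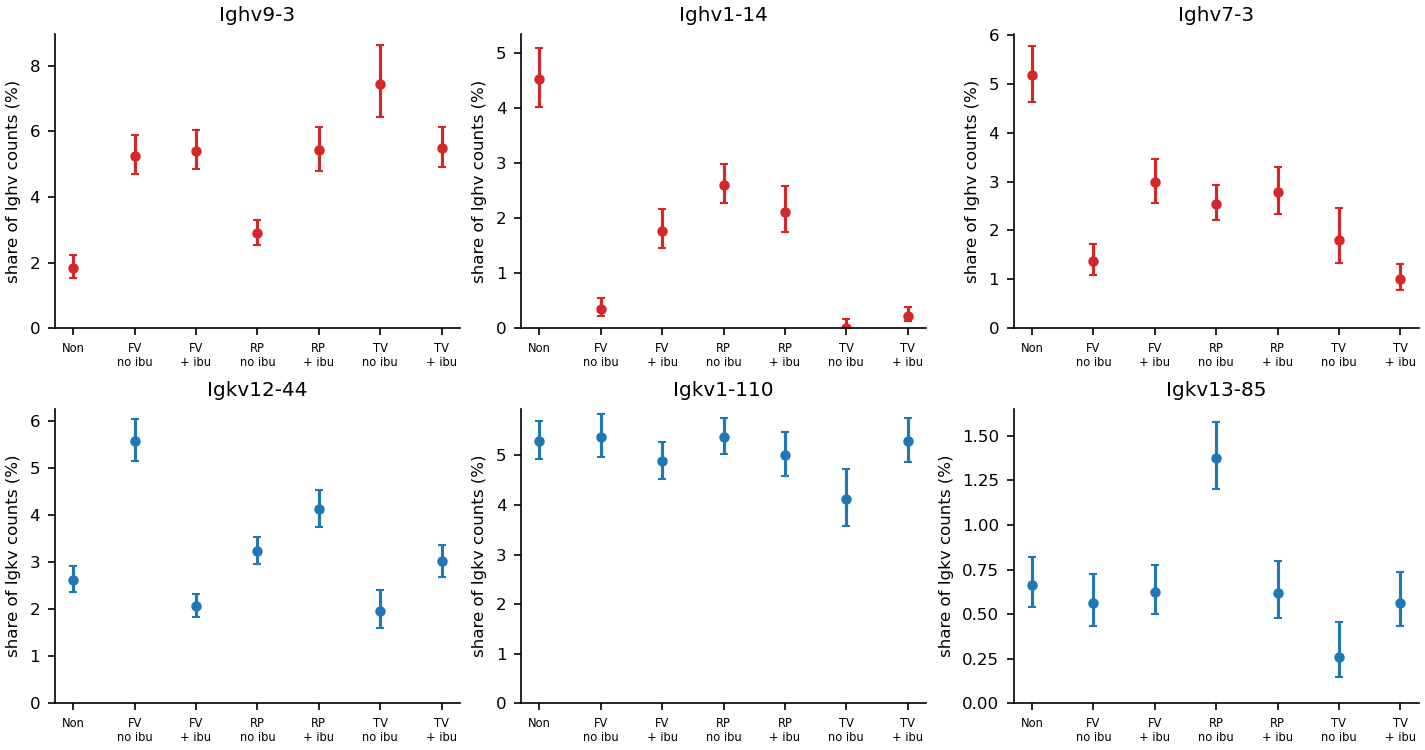
Share of locus counts (%, vertical axes from 0) of 6 segments in each of the 7 libraries (horizontal axes), heavy chain segments in red and kappa segments in blue, with bars for 95% Wilson intervals. Ighv9-3 was lowest in Non at 1.84%, Ighv1-14 was at 4.53% in Non with 0 counts in TV without ibuprofen, Igkv1-110 stayed between 4.11% and 5.38%, and Igkv13-85 reached 1.38% in RP without ibuprofen alone.

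At the kappa locus the 2 leading members were Igkv1-110, with a mean share of 5.05% ± 0.455 (SD, n = 7 libraries of different groups), and Igkv1-117 at 4.82% ± 0.464. Both were steady. Igkv1-110 was lowest in TV without ibuprofen (4.11%) and highest in FV without ibuprofen (5.38%), and Igkv1-117 from 4.28% in RP without ibuprofen to 5.61% in Non. As sequence copies of each other they were also summed, and the pair held between 9.19% and 10.9% of Igkv counts in every library. They were followed by Igkv6-15 at 3.50% ± 0.484, Igkv12-44 at 3.23% ± 1.27, Igkv6-23 at 2.84% ± 0.591 and Igkv6-20 at 2.76% ± 0.695. On shares of deposited TPM the order of these 6 was the same, with Igkv1-110 at 5.03%.

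Igkv12-44 was the least steady of the leading kappa members. It took 5.58% of Igkv counts in FV without ibuprofen, where it was the most used kappa segment, against 2.07% in FV with ibuprofen. It took 2.63% in Non, 3.23% in RP without and 4.12% in RP with ibuprofen, and 1.96% in TV without and 3.02% in TV with ibuprofen. The interval in FV without ibuprofen was above all others. Igkv13-85 was the single member whose highest share was at least 2 times the second highest on at least 200 counts: it held 1.38% (203 counts) in RP without ibuprofen and between 0.26% and 0.67% elsewhere. Its nearest segment, the member Igkv13-84, was 97.0% identical, with 9 differing bases. Summed, these 2 members held 2.02% of Igkv counts in RP without ibuprofen and 2.01% in FV with ibuprofen. In the remaining libraries the sum was between 0.81% and 1.55%. The split within this pair is uncertain, and the sum did not single out RP without ibuprofen.

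Igkv5-45 and its near copy Igkv5-43 split their counts differently from library to library. Igkv5-45 held 30.0% of the pair's counts in Non and between 34.6% and 38.1% in both FV libraries and TV without ibuprofen. Its part was 52.9% and 53.9% in the RP libraries and 62.7% in TV with ibuprofen. The pair together moved less, from 3.28% of Igkv counts in Non to 5.17% in TV with ibuprofen. As the exons differ at only 3 of 298 bases, the split within the pair is uncertain and the sum is the firmer value.

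The lambda locus has few segments in the laboratory mouse, and its members made up between 1.61% and 2.34% of light chain segment counts. Per 100 counts of the lambda constant region genes Iglc1, Iglc2 and Iglc3 there were between 6.06 and 13.15 Iglv counts. Igkv counts per 100 counts of the kappa constant region gene Igkc were between 70.2 and 85.1. The share of segment counts is therefore not a measure of how much light chain mRNA is lambda. Iglv1 held 50.4% ± 7.64 (SD, n = 7 libraries of different groups) of the lambda counts, from 39.7% in RP without ibuprofen to 64.4% in FV without ibuprofen. Iglv2 held 25.2% ± 5.10 and Iglv3 24.4% ± 3.62. Iglv1 and Iglv2 were 97.4% identical, while Iglv3 was 54.7% identical to its nearest lambda segment.

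**Figure D2:**
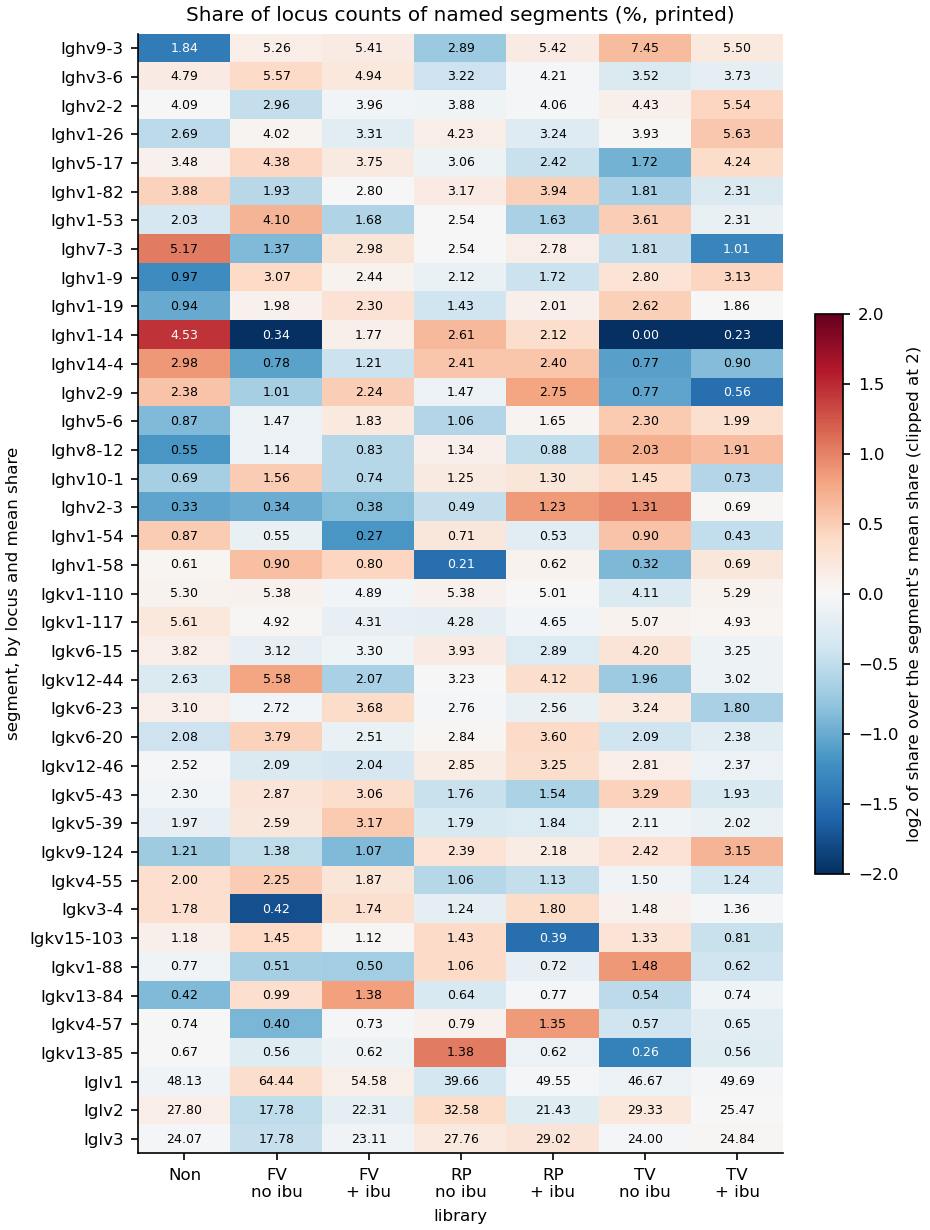
Share of locus counts of 39 segments named by rule (rows, by locus and mean share) in the 7 libraries (columns), with the share in % printed in each cell and colour for the log2 of the share over the segment's mean share, clipped at 2. Igkv1-110 and Igkv1-117 are pale across their rows, from 4.11% to 5.61%, while the row of Ighv1-14 goes from 4.53% in Non to 0 counts in TV without ibuprofen.

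Grouped by family, Ighv1, whose 37 members are the large distal family, held 52.3% ± 2.58 of Ighv counts (SD, n = 7 libraries of different groups). It ran from 49.1% in FV with ibuprofen to 55.5% in TV without ibuprofen. Ighv5 held 10.6% ± 1.56, Ighv2 9.70% ± 1.31 and Ighv14 6.66% ± 1.43, the last from 4.25% in TV without ibuprofen to 8.32% in Non. At the kappa locus Igkv6 held 16.9% ± 1.24, Igkv1 14.8% ± 0.494 and Igkv4 12.95% ± 1.36. Igkv3, a family of 7 members next to the J segments, held 9.43% ± 1.88, with 5.64% in FV without ibuprofen; the other 6 libraries lay between 9.37% and 11.9%. Its member Igkv3-4 took 0.42% in FV without ibuprofen and between 1.24% and 1.80% elsewhere, and Igkv3-12 took 0.64% there and between 1.09% and 2.20% elsewhere.

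Position along the chromosome, which the choice of members did not use, was compared by splitting each locus into 3 nearly equal sets of members by coordinate. Members spanned chr12:113588267-116000321 at Ighv and chr6:67555636-70704177 at Igkv (mm10). The proximal 22 Ighv members, nearest to the D and J segments, held from 35.5% (interval 33.5% to 37.5%) of counts in TV without ibuprofen to 45.0% (43.7% to 46.3%) in FV with ibuprofen. The distal 22 held from 23.2% in RP with ibuprofen to 27.8% in TV without ibuprofen. At Igkv the proximal 24 members held 41.7% in Non and 33.9% in FV without ibuprofen, and the distal 24 held from 32.4% in FV with ibuprofen to 38.6% in TV with ibuprofen. With 1 library per group these differences had no replicate check.

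**Figure D3:**
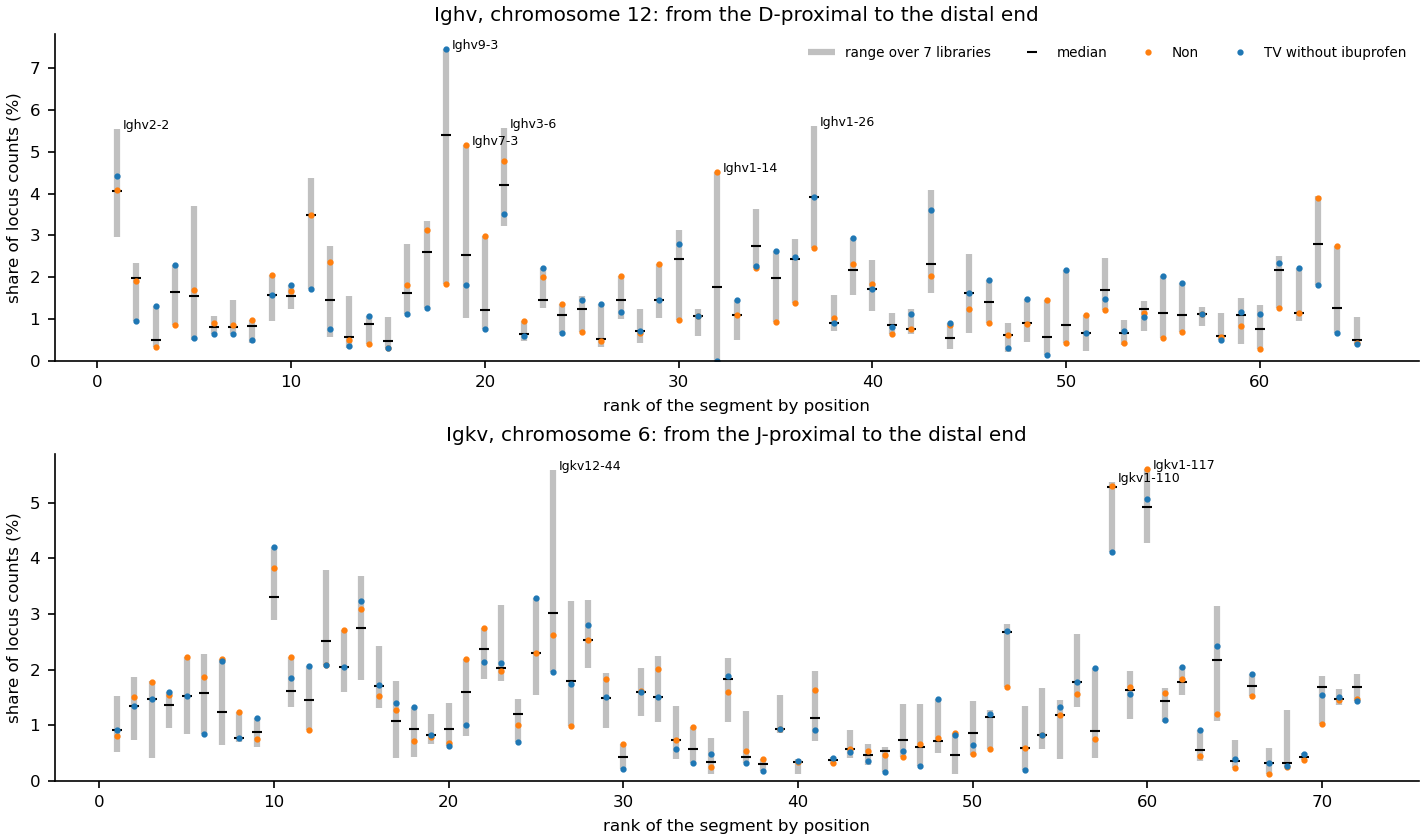
Share of locus counts (%) of each Ighv member (upper panel) and Igkv member (lower panel) against its rank by position, counted from the end nearest to the D or J segments; grey bars give the range over 7 libraries, black ticks the median, orange points Non and blue points TV without ibuprofen. Members with high shares occur along both loci, the widest bar at Ighv is that of Ighv9-3 from 1.84% to 7.45%, and Igkv1-110 and Igkv1-117 sit in the distal part of the kappa locus.

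The effective number of segments, the exponential of the Shannon entropy of the shares, was between 49.7 (TV with ibuprofen) and 55.7 (RP without ibuprofen) for the 65 Ighv members, and between 54.7 (FV without ibuprofen) and 58.4 (RP without ibuprofen) for the 72 Igkv members. After thinning to the lowest locus total these ranges were 49.1 to 54.8 and 54.9 to 58.1. The highest share of any segment in any library was 7.45% at Ighv and 5.61% at Igkv.

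Usage profiles were compared between libraries by the part of the counts that would have to be moved from one segment to another to make 2 profiles equal. At Ighv this distance was largest between Non and TV without ibuprofen, at 30.4%, and 31.0% after thinning to equal counts. Non was also 27.4% from TV with ibuprofen and 26.0% from FV without ibuprofen, but between 17.4% and 18.2% from FV with ibuprofen and the RP libraries. The smallest Ighv distance was 12.7%, between FV with and RP with ibuprofen. At Igkv distances ran from 10.5% between the 2 RP libraries to 17.7% between FV without and TV with ibuprofen. The last pair was 14.0% apart at Ighv, and FV with and RP with ibuprofen were 16.6% apart at Igkv, so these 2 pairs were further apart at Igkv than at Ighv. The mean over the 21 pairs was 19.3% at Ighv and 14.7% at Igkv, but Ighv had fewer counts, and fewer counts make distances larger through counting error. No replicate library exists against which to set these distances.

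The summed level of the members was given as CPM, counts relative to library size after TMM scaling (trimmed mean of M values). Ighv members summed to 103 CPM in Non, 93.7 in FV without and 84.6 in FV with ibuprofen, 98.3 in RP without and 89.1 in RP with ibuprofen, and 67.6 in TV without and 117 in TV with ibuprofen. Igkv members summed to 236 CPM in Non, 185 and 196 in FV, 188 in both RP libraries, and 140 and 214 in TV without and with ibuprofen. Iglv members summed to 4.31 CPM in Non, between 3.84 and 4.50 in the FV and RP libraries, and 2.29 and 3.54 in TV without and with ibuprofen. TV without ibuprofen was thus the lowest library at each locus. On the deposited TPM scale, which is per length, Igkv stood above Ighv in every library, at 629 against 312 TPM in Non and 162 against 88.6 TPM in TV without ibuprofen. In RP the Igkv total was 579 TPM without and 423 TPM with ibuprofen, so the equal CPM there depends on the scale.

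The order of the libraries was different for other B cell genes. Ighm, the constant region of IgM, stood at 506 CPM in Non, 214 in FV without and 329 in FV with ibuprofen, 571 and 566 in RP without and with ibuprofen, and 325 and 479 in TV without and with ibuprofen. Per 100 Ighm counts there were 43.7 Ighv counts in FV without ibuprofen and 25.7 in FV with ibuprofen. The other 5 libraries had between 15.8 and 24.5. Per 100 counts of a list of 14 B cell receptor and coreceptor genes, all at 1 CPM or more, there were 66.1 member counts in FV without ibuprofen, 45.1 in FV with ibuprofen, and between 25.2 and 37.2 elsewhere. These 14 genes summed to 427 CPM in FV without ibuprofen and 930 in Non.

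The same FV library had the highest share of IgA. Igha, the constant region of IgA, made up 60.0% of heavy constant region counts in FV without ibuprofen, 37.6% in FV with ibuprofen and 28.3% in Non. It made up 15.1% (without ibuprofen) and 16.5% (with) in RP and 22.9% and 31.4% in TV. Jchain, which links IgA and IgM into polymers, had 101 CPM in FV without ibuprofen, against 62.9 in Non and between 28.4 and 74.4 elsewhere. It belongs to a list of 12 plasma cell genes, of which 10 were at 1 CPM or more. In FV without ibuprofen 6 of these 10 were higher than in Non and 4 lower. Sdc1 was among the lower, at 2.72 against 3.82 CPM, as were Mzb1, Irf4 and Slamf7. The part of IgA-producing cells in the segment counts was not tested. Per 100 counts of all heavy constant region genes, Ighv counts varied less, from 10.7 in RP with to 14.1 in FV without ibuprofen.

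**Figure D4:**
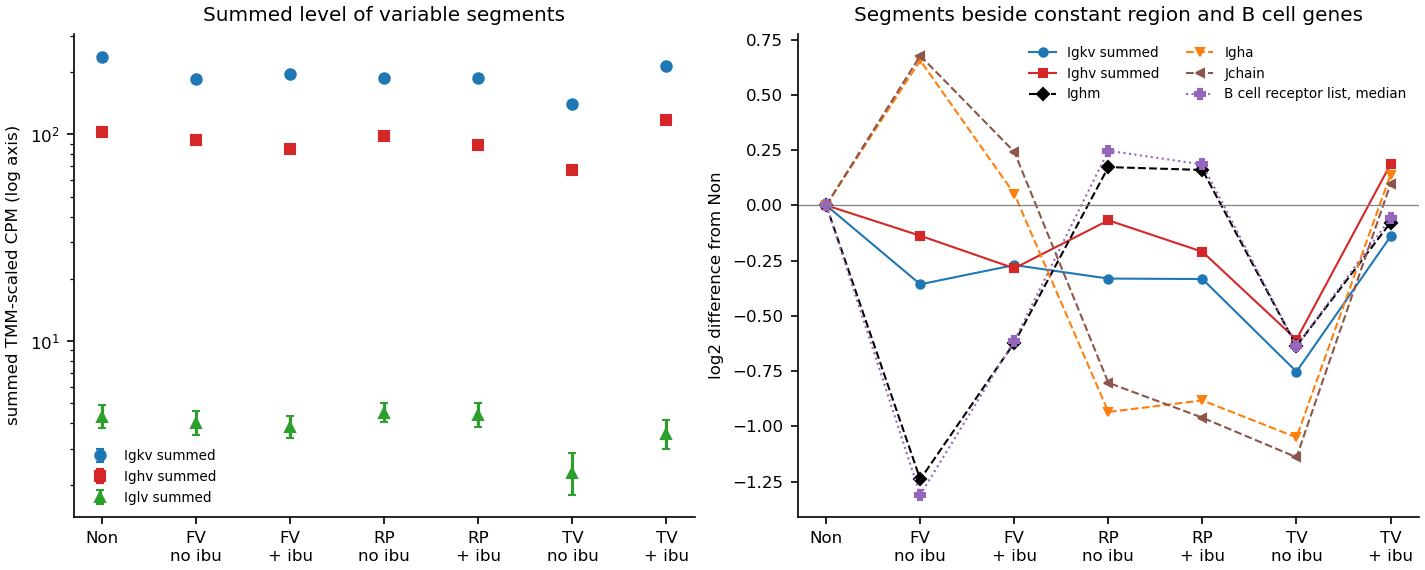
Left, summed TMM-scaled CPM (log axis) of the variable segments of each locus in the 7 libraries, with bars for 95% counting intervals; right, log2 difference from Non of the summed Ighv and Igkv members beside Ighm, Igha, Jchain and the median of 14 B cell receptor genes, with lines that only join points of the same quantity. In FV without ibuprofen Ighm was at 214 against 506 CPM in Non while the Ighv sum was 93.7 against 103 CPM and Igha was 400 against 254 CPM.

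Markers of other blood cells differed between the libraries as well. The T cell list (12 of 12 genes at 1 CPM or more) summed to between 444 CPM in TV without and 1126 CPM in RP with ibuprofen, the platelet list (9 of 9) to between 806 in RP with and 4091 in TV without ibuprofen, and the classical monocyte list (8 of 8) to between 1657 in RP with and 7303 in FV without ibuprofen. The neutrophil list (10 of 11) ran from 194 CPM in TV with to 1236 in FV without ibuprofen. In none of these lists was a gene at 0 in any library. Adult globin took between 46.3% (FV with ibuprofen) and 70.9% (TV without ibuprofen) of all counts, and total counts ran from 47903611 to 63801032. Their part in the segment differences was not tested.

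The first comparison asked how collection without ibuprofen differed from Non, and its 3 routes share the Non library. The Ighv total was lower than in Non by 0.14 (FV), 0.07 (RP) and 0.61 (TV) on the log2 scale, a mean difference of -0.27 ± 0.29 (SD, n = 3 routes). The Igkv total differed by -0.36, -0.33 and -0.75, with a mean of -0.48 ± 0.24, and the Iglv total by -0.10, 0.06 and -0.91, with a mean of -0.32 ± 0.52. Over all 140 members the median log2 difference from Non was -0.19 in FV (88 lower, 52 higher), -0.19 in RP (86 lower, 54 higher) and -0.68 in TV (111 lower, 29 higher), against 0.01, 0.01 and -0.06 over the 11804 genes that averaged 1 CPM or more. Of those genes 50.6% (FV), 52.5% (RP) and 45.6% (TV) were higher than in Non, against 37.1%, 38.6% and 20.7% of members. Only 99 of the 140 members averaged 1 CPM or more.

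Single segments were tested with edgeR's quasi-likelihood test over all genes that averaged 1 CPM or more, with route and ibuprofen as terms and Non fitted exactly, so that it was assumed to vary like the other libraries. Of 11804 genes 1 passed a Benjamini-Hochberg adjusted p of 0.05 (0.00847%), and none of the 99 members tested did; 41 members were below the filter. At an unadjusted p of 0.05 there were 18 of these members (1 higher, 17 lower) against 7.6% of all genes (4.51% higher, 3.09% lower). DESeq2 called 17 genes, among them the member Ighv1-14, and limma-voom 1 gene and 0 members. The smallest adjusted p of a member in the edgeR quasi-likelihood test with Benjamini-Hochberg adjustment was 0.633.

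The members with the smallest p on the lower side were Ighv7-3 at -1.74 (SE 0.361), Ighv2-9 at -1.48 (SE 0.348) and Ighv1-14 at -3.42 (SE 0.815) on the log2 scale. Those on the higher side were Ighv9-3 at 1.14 (SE 0.334), Ighv1-9 at 1.22 (SE 0.528) and Ighv1-19 at 0.79 (SE 0.356). The fitted value of Ighv1-14 depends on the prior count because 1 of its libraries held 0 counts. Whether Ighv1-14 passed edgeR depended on which libraries were in the fit. Its fitted value was -2.72 when FV without ibuprofen was left out, -3.38 when FV with ibuprofen was left out and -3.14 when both were. Without FV with ibuprofen, Ighv7-3 stood at -1.75. Such fits leave a route with 1 library or none, so only their fitted values are given. DESeq2 gave Ighv1-14 a value of -3.70.

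Pairs of single libraries allowed no test, and the limit of a mean of 10 CPM set for them left at most 2 members in a pair with Non (Igkv1-110 and Igkv1-117). Where they reached that limit, 0 differed 2-fold. For TV without ibuprofen against Non only 1 member reached it. Igkv1-110, below the limit there, had 5.77 against 12.5 CPM, a log2 difference of -1.11. Of all genes above that limit, 7.68% (FV), 0.413% (RP) and 10.8% (TV) did without ibuprofen, and 5.54% (FV), 0.331% (RP) and 0.529% (TV) with it. At a mean of 1 CPM, a limit chosen after seeing the data, TV without ibuprofen differed at least 2-fold from Non in 32 of 92 members (31 lower) against 12.4% of all genes (3.56% lower). FV without ibuprofen did so in 24 of 100 (22 lower) against 9.57% (2.94% lower), and RP without ibuprofen in 11 of 106 (8 lower) against 1.4% (0.735% lower). With ibuprofen the counts were 11 of 102 in FV (6.95% of genes), 17 of 102 in RP (1.42%) and 21 of 107 in TV (1.44%). In TV with ibuprofen 14 of the 21 were higher than in Non (0.855% of genes), whereas 16 of 17 in RP (0.917% of genes) and 8 of 11 in FV (1.05% of genes) were lower. All 6 of these pairs share the Non library. These counts describe members at a few CPM, where counting error alone is wide, beside genes at all levels. Ighv9-3 was at least 2-fold higher than in Non in FV without (1.36 on the log2 scale) and with ibuprofen (1.26), RP with ibuprofen (1.33) and TV without (1.39) and with ibuprofen (1.75).

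The second comparison asked how ibuprofen differed within routes. With ibuprofen the Ighv total differed by -0.15 in FV, -0.14 in RP and 0.79 in TV on the log2 scale, and the Igkv total by 0.09, -0.002 and 0.61. The mean over all members' summed counts was 0.21 ± 0.40 (SD, n = 3 routes), so the difference was smaller than its spread, and without the TV route it was -0.02. Over all 140 members the median was 0.01 in FV, -0.08 in RP and 0.65 in TV, where 117 members were higher and 23 lower. Over the 11804 genes that averaged 1 CPM or more the medians were 0.04, -0.01 and 0.04. Of those genes 55.8% (FV), 48.2% (RP) and 53% (TV) were higher with ibuprofen, against 50.7%, 42.1% and 83.6% of members. Only 99 of the 140 members averaged 1 CPM or more. On deposited TPM the Ighv total in FV was 310 without and 338 with ibuprofen, so its sign there depends on the scale.

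In the edgeR quasi-likelihood test of ibuprofen over 6 libraries, 0 of 11809 genes (0%) passed a Benjamini-Hochberg adjusted p of 0.05, and so did 0 of 98 members tested, with 42 below the filter. At an unadjusted p of 0.05 there were 1205 genes (10.2%) and 5 members, all 5 higher (4.77% of genes). DESeq2 called 112 genes and limma-voom 2, in each case with 0 members. The smallest p on the higher side were those of Igkv4-57 at 0.84 (SE 0.252), Igkv3-4 at 1.03 (SE 0.374) and Ighv2-9 at 0.74 (SE 0.277). On the lower side they were those of Ighv1-53 at -0.70 (SE 0.337), Igkv15-103 at -0.73 (SE 0.395) and Ighv10-1 at -0.50 (SE 0.340). At a mean of 1 CPM, 20 of 99 members were higher with ibuprofen in all 3 routes, 20.2% against 20.1% of all genes.

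Igkv4-57 went from 0.732 CPM without to 1.42 CPM with ibuprofen in FV, from 1.48 to 2.53 in RP and from 0.794 to 1.39 in TV, so it was higher with ibuprofen in 3 of 3 routes, against 1.75 CPM in Non. Igkv3-4 had 0.768 and 3.41 CPM in FV, 2.32 and 3.38 in RP and 2.08 and 2.93 in TV, again higher in 3 of 3 routes, against 4.20 CPM in Non. Both were picked for a small p in a fit across these routes, so agreement between the routes is part of that choice. Between the 2 TV libraries 26 of 95 members were at least 2-fold apart, all 26 higher with ibuprofen, against 9.87% of genes (3.28% higher). In FV 12 of 94 were 2-fold apart (3.27% of genes) and in RP 8 of 103 (2.25%). At the limit of 10 CPM 1.89% of genes in FV, 0.893% in RP and 7.2% in TV were 2-fold apart, but 0 members reached that limit in these pairs. The largest of the TV differences were Igkv14-130 at 2.79, Ighv1-84 at 2.29 and Ighv5-17 at 2.06 on the log2 scale.

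The third comparison asked how routes differed, each with its 2 libraries. Between FV and RP 13 of 11809 genes (0.11%) passed the edgeR quasi-likelihood test at a Benjamini-Hochberg adjusted p of 0.05, and 0 of 98 members did, the smallest member adjusted p being 0.103 for Igkv5-43. Unadjusted, 10 members were under 0.05 against 24.8% of genes. Igkv5-43 had 5.29 and 6.00 CPM in FV and 3.30 and 2.89 in RP, a log2 difference of 0.87 (SE 0.216). Its split from the near copy Igkv5-45, whose difference was -0.09 (SE 0.397), is uncertain, and the pair together held 4.58% and 4.94% of Igkv counts in FV against 3.73% and 3.34% in RP. Igkv4-55 had 4.14 and 3.67 CPM in FV and 1.99 and 2.12 in RP, a difference of 0.93 (SE 0.256). Igkv5-39 was higher by 0.67 (SE 0.225). Ighv14-4 had 0.732 and 1.02 CPM in FV and 2.37 and 2.14 in RP, a difference of -1.40 (SE 0.381), and it passed with DESeq2 (-1.43). DESeq2 called 1077 of 11809 genes here, with Ighv14-4 the only one of 98 members, and limma-voom 118 genes and 0 members. Igkv4-57 differed by -0.92 (SE 0.302) and Igkv12-46 by -0.54 (SE 0.202).

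Between TV and RP, and between TV and FV, 0 of 11809 genes (0% in both) and 0 of 98 members passed the same edgeR test. Unadjusted there were 1542 genes (13.1%) and 7 members for TV against RP, and 1270 genes (10.8%) and 9 members for TV against FV. DESeq2 called 189 and 319 genes and limma-voom 0 and 6, with 0 members in each. The members with the smallest p were lower in TV than in RP: Ighv2-9 had 0.519 and 0.660 CPM in TV against 1.44 and 2.45 in RP, a log2 difference of -1.70 (SE 0.352), and Ighv14-4 had 0.519 and 1.06 against 2.37 and 2.14, a difference of -1.57 (SE 0.397). Ighv1-14 had 0 and 0.264 CPM in TV against 2.56 and 1.89 in RP. With either FV library left out of the fit, these 3 stood at -1.70, -1.55 and, for Ighv1-14, -3.98 or -3.97. On the higher side were Ighv9-3 at 0.61 (SE 0.262), Igkv5-43 at 0.50 (SE 0.218) and Ighv5-6 at 0.62 (SE 0.307). For Igkv5-43 the same uncertainty holds: it held 3.29% and 1.93% of Igkv counts in TV without and with ibuprofen, and the pair with Igkv5-45 held 5.03% and 5.17%.

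Against FV, TV was lower for Ighv2-9 at -1.22 (SE 0.354), Igkv13-84 at -0.98 (SE 0.333) and Igkv4-55 at -0.71 (SE 0.259). It was higher for Igkv9-124 at 1.10 (SE 0.356), Ighv8-12 at 1.08 (SE 0.453) and Igkv1-88 at 0.77 (SE 0.341). Ighv8-12 had 1.38 and 2.24 CPM in TV and 1.07 and 0.704 in FV, and Igkv9-124 had 3.39 and 6.75 in TV and 2.55 and 2.1 in FV. Which members passed this test changed when either FV library was left out, which leaves FV with 1 library.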

How the data were processed

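PBMC RNA of 7 groups gave 7 libraries. The labels' protocols name an RNeasy kit for the RNA and TruSeq Stranded mRNA for the libraries. Build mm10, HISAT2 2.1.0 and Trimmomatic 0.38 come from the submitters' processing notes, which state no roles here. How reads were counted, on which annotation, with or without strand, and what became of reads matching several segments is not given in these sources, so reads of near copies may be split or lost. Read counts per gene were deposited as whole numbers without normalization, judging from the column headers and values. The FPKM values deposited by the authors were not used. The TPM values deposited by the authors served as an alternative scale.

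Computation used R 4.3.3 with edgeR 4.0.16 (TMM scaling, glmQLFit and glmQLFTest), limma 3.58.1 and DESeq2 1.42.0. Fits used all genes averaging 1 CPM or more and left 2 residual degrees of freedom, and p-values were adjusted by Benjamini-Hochberg at 0.05. Differences between single libraries are log2 CPM with a prior count of 2. TMM factors ran from 0.553 to 1.31, and the 21 pairs of libraries all differed by more than sampling noise (chi-square per degree of freedom at least 30.7 over all genes, and between 6.01 and 16.9 over members). Identities between V exons were counted by pairwise alignment. Coordinates are 1-based. The scripts that fit models were tested on simulated counts.

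Members, lists and tests were chosen with earlier results of these data known. Members named were the 6 with the highest mean share at Ighv and Igkv, all at Iglv, those whose highest share was at least 2 times the second on at least 200 counts, the 3 with the smallest p in each direction of each fit, and 3 rows on each side of the limit of 200 counts. Other members were named after their values were seen, namely those with near copies, those that GENCODE or the table annotate as pseudogenes, and those at the extremes of a library. Alternatives were other scalings, filters, tests and units, other limits for members, and leaving out libraries.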

Additional observations from a re-analysis of the deposited data

Results flagged for a closer look

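Igkv12-44, a leading kappa segment, moved in opposite directions with ibuprofen in 2 routes by at least 2-fold. In FV the log2 difference with ibuprofen was -1.34 (10.3 CPM without and 4.05 CPM with ibuprofen), and in TV it was 1.22 (2.75 and 6.47 CPM). In RP it had 6.07 CPM without and 7.74 CPM with ibuprofen, and in Non 6.22 CPM. Each value rests on 1 library, and the difference between the routes was not tested.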

How the results depend on the processing

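No paired analysis was possible because each group has 1 library and the replicate numbers are names only; this concerns replicate numbers, since the ibuprofen test compared libraries within routes through its route term. Without that term 0 genes passed, and 420 genes and 1 member, against 1205 and 5, were under an unadjusted p of 0.05. Counts of members that passed were 0 with each of the other tests, scalings and filters tried, except 1 with DESeq2 for collection against Non and 1 for FV against RP. Leaving out libraries gave 0 to 2 members for collection against Non, 0 to 2 for FV against RP, 0 to 4 for TV against RP, 0 to 2 for TV against FV and 0 for ibuprofen. In each of these fits in which a member passed, many genes that are not members passed as well. Each of them also left a route with 1 library or none. The counts from leaving out libraries therefore do not set members apart from other genes. Without scaling factors the Igkv difference from Non was -0.76 and that of all loci -0.69, and on deposited TPM -0.77 and -0.70, further from 0 than with TMM. At a mean of 5 CPM, 1 member was 2-fold from Non over the 6 pairs and 1 with ibuprofen over the 3 pairs. At 1 CPM, added after seeing the data, these counts were 116 and 46. They are sums over the pairs, so a member that differed in several pairs was counted in each. The share of all genes in each pair at that limit is given with the comparisons above. With a limit of 1000 summed counts the mean share was 18.4% for Ighv9-3 and 6.78% for Igkv1-110, the effective numbers were 6.67 (Ighv) and 32.6 (Igkv), and the mean distances 14.2% and 12.6%, since fewer members were left. With all segment rows the effective numbers were 73.2 and 65.6. Without the most used member the Iglv effective number was 1.99. In all, 154 values of main results stayed on the same side or within their spread, 28 moved and 0 reversed. At the low counts of most members (0 with a mean of at least 10 CPM, 99 of 140 with at least 1 CPM), a 2-fold difference between 2 libraries may be within counting error.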

Other observations

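The joining segments, to which V segments are joined in B cell DNA, were read as separate rows of low counts and were not members. At the kappa locus Igkj2 held between 27.0% and 33.8% of joining counts in 5 libraries, but 9.73% (43 of 442 counts, interval 7.30% to 12.9%) in FV without ibuprofen and 10.6% (21 of 198 counts, 7.04% to 15.7%) in TV without ibuprofen. Igkj4 held between 13.9% and 16.2% in FV with ibuprofen, both RP libraries and TV with ibuprofen, and 3.30% in Non, 1.58% in FV without ibuprofen and 4.55% in TV without ibuprofen. Igkj5 held 27.5% in Non, 36.9% in FV without and 28.3% in TV without ibuprofen, 19.0% in FV with ibuprofen, and from 5.47% to 9.19% in TV with ibuprofen and both RP libraries. Igkj1 held from 30.3% in Non to 51.0% in TV without ibuprofen. At the heavy chain locus Ighj4 led in every library, with between 36.9% and 49.3%. Joining exons are short, so these shares rest on few counts, and the intervals cover counting error only.

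Genes of V(D)J recombination and the surrogate light chain, most of which are active in B cell precursors, were low. Of 7 such genes, 1 (Vpreb3) reached a mean of 1 CPM, with between 1.5 and 5.18 CPM. Rag1 had between 0.153 and 0.518 CPM, and Igll1 and Vpreb2 had 0 counts in all 7 libraries.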
